A study of Mus musculus with 6 samples.

Results

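The insulin-like growth factor (IGF) genes were examined in cell lines grown out of mouse liver tumors. They comprise 10 members, the ligands *Igf1* and *Igf2*, the receptors *Igf1r* and *Igf2r*, and the binding proteins *Igfbp2*, *Igfbp3*, *Igfbp4*, *Igfbp5*, *Igfbp6* and *Igfbp7*. Members were found by gene symbol among the 20856 genes with values in the deposited expression table, each symbol matching 1 gene. RNA-seq was available for 6 lines, 3 of them *Myc*; sg*Trp53* and 3 *Myc*; sg*Kmt2c*, where *Kmt2c* encodes the histone methyltransferase MLL3. All 6 tumors arose in C57BL/6 livers after hydrodynamic tail vein injection of a *Myc* transposon, which drives stable *Myc* expression, together with the plasmid pX330, which carries Cas9 and a guide RNA and is expressed transiently. The guide was against *Trp53* in the former genotype and against *Kmt2c* in the latter, so the *Myc* transposon is common to the 6 lines, no line has both genes untargeted, and a difference between the genotypes cannot be assigned to either gene. The lines were untreated, are not isogenic, and were passaged on collagen until no fibroblasts were visible. The lines of a genotype are stated to come from different mice. The sample labels call sg*Kmt2c* replicates 2 and 3 lines 2A and 2T1, and they were counted as separate lines here.

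IGF-I and IGF-II are secreted hormones that bind the IGF1R tyrosine kinase and signal through IRS adaptors to the PI3K-AKT and RAS-MAPK pathways. The product of *Igf2r*, the cation-independent mannose 6-phosphate receptor, does not transmit a growth signal but takes up IGF-II and delivers it to lysosomes. The IGF-binding proteins hold the ligands outside the cell, and can restrain or prolong their action until proteases cut them. Adult liver is the main source of circulating IGF-I and of IGFBP1, while *Igf2* is an imprinted gene of fetal liver that falls silent after birth in mice and is often reactivated in liver cancer. In mice *Igf2* is transcribed from the paternal and *Igf2r* from the maternal chromosome.

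Expression was read as RPKM, the reads on a gene per kilobase of its listed transcript, scaled to the total reads of the library. The libraries held 5312182 to 6878625 reads on genes in *Myc*; sg*Trp53* lines and 3680068 to 4704539 in *Myc*; sg*Kmt2c* lines, so that a single read on a transcript of 2 kb was worth 0.0726 to 0.136 RPKM. *Trp53* was checked first and lay at 17.2, 17.6 and 19.4 RPKM in *Myc*; sg*Trp53* lines against 92.2, 124 and 121 in *Myc*; sg*Kmt2c* lines, whereas *Kmt2c* transcript overlapped between the genotypes. sg*Kmt2c* replicate 1 stood apart from the other lines, with a summed level of 14 hepatocyte markers (13 in the table) of 5617 RPKM against 24.7 to 362 elsewhere, nearly all of it *Apob* (4385 RPKM) and *Hnf4a* (1186 RPKM). Their weight in the sum depends on the listed transcript lengths, 1118 and 431 bases. In reads that line had 23099 on *Apob* and 2409 on *Hnf4a*, against at most 616 and 313 in any other line. The hepatocyte markers did not run together. *G6pc* was at 0, *Cyp2e1* at up to 0.206 RPKM, *Alb* at up to 4.36 RPKM and *Ttr* at up to 1.34 RPKM outside sg*Kmt2c* replicate 1, which had 14.1. Outside that line *Hnf4a* lay at 0.629 to 170 RPKM, *Apob* at 0.243 to 129 RPKM, *Ass1* at 1.26 to 89.9 RPKM and *Fgb* at 0.0712 to 32.5 RPKM. Among the markers of other cells, no endothelial gene of 8 reached the level needed for the test, and the T and B cell genes *Cd3e* and *Cd79a* were at 0. The fibroblast list of 12 genes summed to 2904 to 4889 RPKM in *Myc*; sg*Trp53* and 2434 to 5476 in *Myc*; sg*Kmt2c* lines, mostly *Vim*. *Col1a1* lay at 0.470 to 39.2 and 0.215 to 2.01 RPKM, *Col3a1* at 3.37 to 814 and 0.0672 to 114.5, and *Pdgfrb* at 0.970 to 32.7 and 0 to 23.4. All 7 tested overlapped, with no unadjusted p-value under 0.05 (limma). Of those too low for the test, *Dcn* was without overlap, at 7.39, 0.897 and 8.16 RPKM in *Myc*; sg*Trp53* and 0, 0 and 0.248 in *Myc*; sg*Kmt2c* lines. The other untested fibroblast genes overlapped, *Postn* at 0.0525 to 107 and 0 to 0.974 RPKM. The 10 epithelial genes summed to 115.8 to 1697 and 321.5 to 7388 RPKM, and none of the 8 tested had an unadjusted p-value under 0.05 (limma). The 9 stellate and smooth muscle genes summed to 22.9 to 244 RPKM in *Myc*; sg*Trp53* and 0.433 to 31.4 in *Myc*; sg*Kmt2c* lines. Of the 3 tested, 2 were lower in *Myc*; sg*Kmt2c* lines at an unadjusted p-value under 0.05 (limma), where 5.34% of all genes were lower. *Cnn1* lay at 9.90, 30.3 and 38.4 RPKM in *Myc*; sg*Trp53* and 0, 0.229 and 0.790 in *Myc*; sg*Kmt2c* lines. *Tagln* lay at 9.20, 8.30 and 77.6 RPKM in the former and 0.401, 2.91 and 5.75 in the latter. Their log2 fold changes were -4.19 and -2.55 (adjusted p = 0.061 and 0.55, limma). *Acta2*, also tested, overlapped. Among 9 immune genes, which summed to 21.9 to 58.7 and 5.51 to 15.4 RPKM, 2 of the 3 tested were likewise lower, the macrophage genes *Lyz2* and *Csf1r*. *Lyz2* lay at 17.1 to 45.3 RPKM in *Myc*; sg*Trp53* and 0 to 12.4 in *Myc*; sg*Kmt2c* lines, and *Csf1r* at 1.70 to 10.0 and 0 to 0.967. The macrophage gene *Adgre1*, too low for the test, was also without overlap, at 0.202 to 0.492 and 0 to 0.0721 RPKM. *Cd68*, also tested, overlapped at 2.60 to 7.60 and 1.71 to 5.35 RPKM (log2 fold change -0.17, unadjusted p = 0.730, limma). *Ptprc* was at up to 0.0655 RPKM and *Clec4f* at 0. Whether such cells contribute to any difference described here was not tested, and in bulk RNA fewer expressing cells and less transcript per cell cannot be told apart.

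All 10 IGF members were tested, and the data separated them into genes that were lower in *Myc*; sg*Kmt2c* lines (both ligands and *Igfbp7*), genes that were higher (*Igf2r* and *Igfbp5*) and 5 genes whose lines overlapped. *Igf2* fell and was the only member past an adjusted p-value of 0.05 (limma on log2(RPKM + 1), Benjamini-Hochberg adjustment over 11617 genes), where 0.129% of all genes tested were called, 0.0775% lower and 0.0516% higher. At an unadjusted p-value under 0.05, *Igf1* and *Igf2* were lower and *Igf2r* and *Igfbp5* higher, or 4 of 10 members, against 8.58% of all genes (5.34% lower and 3.25% higher). Values of the 2 genotypes were without overlap in 5 of 10 members, 3 lower and 2 higher, against 16.2% of all genes (10.4% lower and 5.72% higher). Over the 10 members the median log2 fold change was -0.95, beside -0.09 over all genes tested. *Igf2* and *Igfbp5* reached the RPKM of 1 in 3 libraries that the test required in a single genotype only. Each thus entered the test through the genotype where it was high, and both are among the 4 and the 5 members counted above. Without that filter the adjusted p-values of *Igf2* and *Igfbp5* were 0.147 and 0.0919 (limma).

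**Figure D1:**
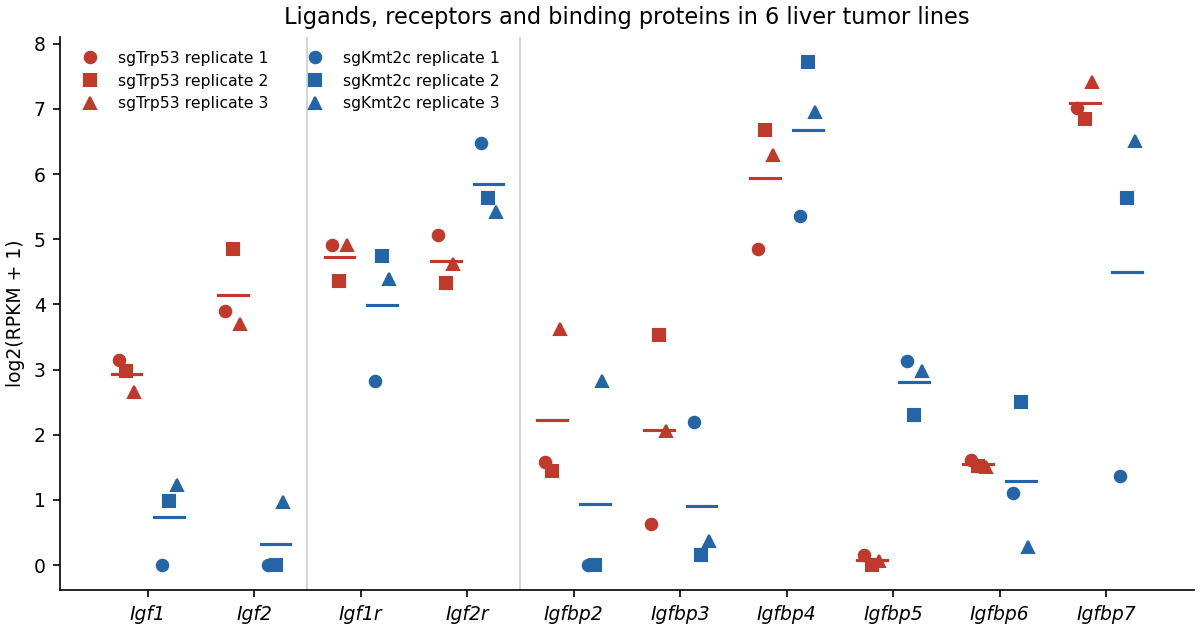
Expression of the 10 IGF members in each line, as log2(RPKM + 1); red symbols are the 3 sgTrp53 lines, blue symbols the 3 sgKmt2c lines, shapes the replicates, and bars the means. For Igf1, Igf2 and Igfbp7 the blue points all lie below the red, for Igf2r and Igfbp5 all above, and for the other 5 members they mix.

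**Figure D2:**
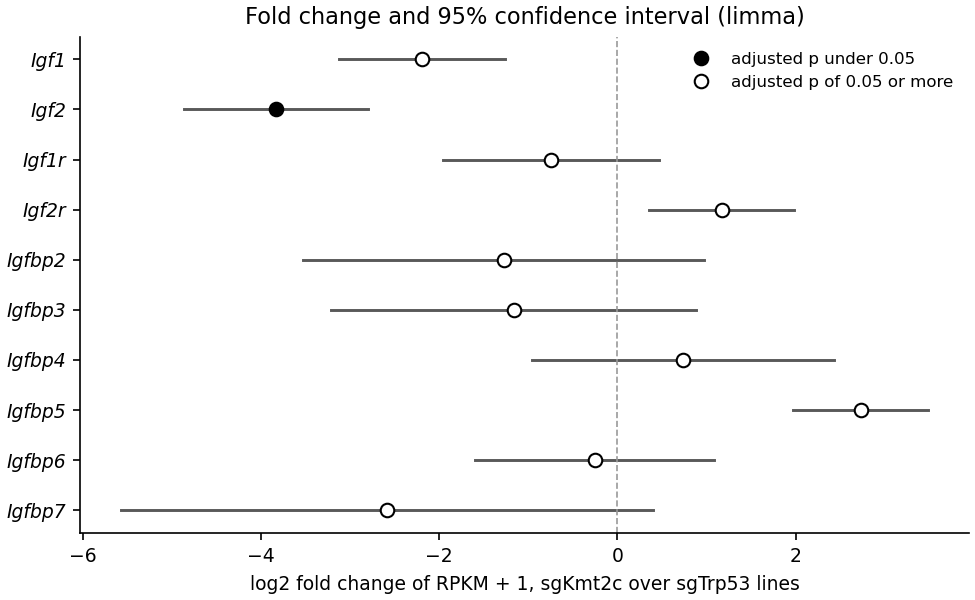
Fitted log2 fold change of RPKM + 1 in sgKmt2c over sgTrp53 lines with its 95% confidence interval (limma, n = 3 lines each); the filled point has an adjusted p-value under 0.05. Only Igf2 is filled, at -3.83, and the intervals of Igf1, Igf2, Igf2r and Igfbp5 lie to one side of 0.

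The sequences before the transcription starts of *Igf2*, *Igf2r* and *Igfbp5* are shown because these are the ligand that fell, the receptor that takes up its product, and the binding protein that differed most in the opposite direction. They come from RefSeq (GRCm38.p6), where all 10 members had a promoter window of 250 bases before and 50 after a start, 14 windows in all and 4 for *Igf2*, of which the one farthest downstream is shown. The 250 bases before each start are given 5′ to 3′ on the minus strand, with CpG dinucleotides, the site of DNA methylation, in capitals. The stretches are chr7:142657497-142657746 for *Igf2*, chr17:12769707-12769956 for *Igf2r* and chr1:72874866-72875115 for *Igfbp5*.
Igf2: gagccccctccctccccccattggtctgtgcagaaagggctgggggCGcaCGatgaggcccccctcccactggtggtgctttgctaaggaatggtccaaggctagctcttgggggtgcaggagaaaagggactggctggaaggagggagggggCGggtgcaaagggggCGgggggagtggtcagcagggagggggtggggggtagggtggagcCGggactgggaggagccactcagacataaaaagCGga
Igf2r: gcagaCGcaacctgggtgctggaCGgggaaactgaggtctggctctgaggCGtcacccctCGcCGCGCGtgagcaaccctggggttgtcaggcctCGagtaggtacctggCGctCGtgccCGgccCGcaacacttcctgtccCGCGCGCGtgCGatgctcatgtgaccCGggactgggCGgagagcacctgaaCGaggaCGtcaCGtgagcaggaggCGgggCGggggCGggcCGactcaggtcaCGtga
Igfbp5: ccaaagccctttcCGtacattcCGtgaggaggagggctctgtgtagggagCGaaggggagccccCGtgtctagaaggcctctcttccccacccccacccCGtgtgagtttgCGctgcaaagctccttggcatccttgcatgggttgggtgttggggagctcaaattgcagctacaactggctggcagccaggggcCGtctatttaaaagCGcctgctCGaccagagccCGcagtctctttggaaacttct
The capitals show a start of *Igf2r* crowded with CpGs, 27 in the 250 bases, beside 6 at *Igf2* and 10 at *Igfbp5*. Counted over the full windows, *Igf2r* had 34 CpGs, more than 92.3% of the 32851 windows in the table, and *Igf1r* had the most among the members with 48, more than 98.8%. The E-box CACGTG, the letters that MYC-MAX dimers are known to bind, occurred at 2 places in the *Igf2r* window and at 1 in an *Igfbp2* window, was not found in the other windows of the members, and is in 7.15% of all windows (both strands searched, overlaps with other motifs not removed). The p53 half-site occurred once, in the *Igf2* window shown, and is in 8.36% of all windows. GGGCGG, the GC box, was in windows of *Igf2*, *Igf1r*, *Igf2r*, *Igfbp2* and *Igfbp7* (35.7% of all windows), and TATAAA in those of *Igfbp4* and *Igfbp6* (13.6%). These are matches of letters, and binding was not measured in the data used here.

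Both ligands were lower in *Myc*; sg*Kmt2c* lines, and *Igf2* nearly disappeared from them. *Igf2* (chromosome 7 of GRCm38, from 142650766 to 142666816) lay at 14.0, 27.7 and 11.98 RPKM in *Myc*; sg*Trp53* lines, from 316, 547 and 306 reads, as opposed to 0, 0 and 0.946 RPKM in *Myc*; sg*Kmt2c* lines, from 0, 0 and 15 reads. The genotypes were far apart, with sg*Kmt2c* replicate 3 the one line of its genotype in which the transcript was seen. Where no read was found, 3 reads would have given 0.172 RPKM in sg*Kmt2c* replicate 1 and 0.220 in replicate 2, which is the limit that a count of 0 allows. The means were 17.9 ± 8.57 and 0.315 ± 0.546 RPKM (SD, n = 3 lines each), 56.7-fold apart. Reads pooled per genotype, 1169 against 15, gave a ratio of 53.9 per library total with a 95% interval of 32.6 to 96.7, which covers counting error only. Leaving out sg*Kmt2c* replicate 3, *Igf2* was at least 91.5-fold lower, computed against 3 reads per library. Fitted on the log2 scale the change was -3.83 (standard error of 0.432), with an adjusted p of 0.0494 (limma). That adjusted p-value is close to the threshold and passed it no longer when any one of the 6 lines was left out (0.0778 to 0.211, limma), while the log2 fold change stayed between -4.15 and -3.48. *Igf2os*, which overlaps *Igf2* on the other strand, had at most 0.309 RPKM, and since the counting is not stated to use strand its reads and those of *Igf2* could not be told apart.

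*Igf1* (chromosome 10, from 87858265 to 87937042) was a low transcript in these lines although its product is a hallmark secretion of adult liver. It lay at 7.90, 6.89 and 5.32 RPKM in *Myc*; sg*Trp53* lines, from 67, 51 and 51 reads, as opposed to 0, 0.975 and 1.35 RPKM in *Myc*; sg*Kmt2c* lines, from 0, 5 and 8 reads. Every sg*Kmt2c* line was thus below every sg*Trp53* line, and sg*Kmt2c* replicate 1 had none, where 3 reads would be 0.458 RPKM. The means of 6.70 ± 1.30 and 0.773 ± 0.695 RPKM (SD, n = 3 each) were 8.67-fold apart, and the ratio of pooled reads was 8.998 (95% counting interval 5.12 to 17.3). Across all genes this difference, -2.19 on the log2 scale (standard error of 0.391), missed the threshold (adjusted p of 0.193, limma). Its unadjusted p-value stayed under 0.05 in 17 of 17 alternative fits, with log2 fold changes of -3.72 to -1.83. The sum of both ligands was 17.3 to 34.6 RPKM in *Myc*; sg*Trp53* lines and 0 to 2.29 RPKM in *Myc*; sg*Kmt2c* lines.

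*H19* lies 72622 bases from *Igf2* and is its imprinted partner, a non-coding RNA of the maternal chromosome that shares its enhancers. It lay at 7.53, 18.3 and 4.32 RPKM in *Myc*; sg*Trp53* lines as opposed to 0.186, 0.712 and 46.9 RPKM in *Myc*; sg*Kmt2c* lines. The line with the most *H19*, sg*Kmt2c* replicate 3, was also the one sg*Kmt2c* line with reads on *Igf2*. The *H19* log2 fold change was -1.06 with a 95% interval of -4.40 to 2.28 (adjusted p = 0.816 from limma), and -0.08 without sg*Kmt2c* replicate 1. None of the 5 tested genes among 8 neighbours of the *Igf2* locus in the table had an unadjusted p-value under 0.05 (limma, and limma voom). The leading genes by p were *Lsp1* at -1.28 and the lysosomal protease gene *Ctsd* at 0.39 on the log2 scale (adjusted p = 0.648 and 0.704, limma).

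The receptors differed from each other in their pattern, with *Igf2r* higher in all sg*Kmt2c* lines and *Igf1r* overlapping. *Igf2r* (chromosome 17, from 12682406 to 12769664) lay at 32.3, 19.1 and 23.5 RPKM in *Myc*; sg*Trp53* lines as opposed to 88.4, 48.5 and 41.5 RPKM in *Myc*; sg*Kmt2c* lines, from 904 to 3700 reads. The lowest sg*Kmt2c* line was above the highest sg*Trp53* line, and sg*Kmt2c* replicate 1 was the highest of all. The means were 25.0 ± 6.73 and 59.4 ± 25.3 RPKM (SD, n = 3 each), a 2.38-fold difference. Across all genes this log2 fold change of 1.17 (95% interval 0.36 to 1.99, standard error of 0.341) missed the threshold (adjusted p of 0.439, limma), and it was 0.85 without sg*Kmt2c* replicate 1. *Igf2r* overlaps the antisense non-coding RNA *Airn* (chromosome 17, from 12741311 to 12860122), which was looked at after the values of *Igf2r* were seen. *Airn* lay at 5.80 to 11.3 RPKM in *Myc*; sg*Trp53* and 5.56 to 11.6 RPKM in *Myc*; sg*Kmt2c* lines, which differ by 0.03 on the log2 scale (95% interval -0.80 to 0.86, limma). How reads in the overlap were divided between them is not known.

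*Igf1r* (chromosome 7, from 67952859 to 68226780), the signalling receptor, lay at 28.9, 19.6 and 29.2 RPKM in *Myc*; sg*Trp53* lines as opposed to 6.10, 25.7 and 20.1 RPKM in *Myc*; sg*Kmt2c* lines. Replicates 2 and 3 of *Myc*; sg*Kmt2c* lines sat within or near the range of *Myc*; sg*Trp53* lines, and replicate 1 well below it. The log2 fold change was -0.74 (95% interval -1.95 to 0.47, adjusted p = 0.709 from limma) and came to -0.16 without sg*Kmt2c* replicate 1, so its size rests on that line, and to -1.12 without sg*Kmt2c* replicate 2. The insulin receptor gene *Insr*, its closest relative, lay at 7.74 to 12.4 RPKM in *Myc*; sg*Trp53* and 8.50 to 10.8 RPKM in *Myc*; sg*Kmt2c* lines. A log2 fold change of 0.05 had an interval of -0.55 to 0.64 (95%, limma).

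Taking both receptors within a line avoids any scaling between libraries. The ratio of *Igf1r* to *Igf2r* in RPKM was 0.894, 1.03 and 1.24 in *Myc*; sg*Trp53* lines and 0.0690, 0.530 and 0.483 in *Myc*; sg*Kmt2c* lines. By RPKM the transcripts were near parity in each sg*Trp53* line, whereas *Igf2r* led in each sg*Kmt2c* line. That parity rests on the listed transcript lengths, 4489 bases for *Igf1r* and 8887 for *Igf2r*. In reads *Igf2r* exceeded *Igf1r* in every line, at 1753, 904 and 1440 against 792, 468 and 903 in *Myc*; sg*Trp53* lines. The difference in log2 ratio between the genotypes does not depend on these lengths. On the log2 scale the ratio averaged 0.06 ± 0.24 and -1.94 ± 1.66 (SD, n = 3 each), a difference of -2.00, or 4.01-fold (two-sided exact permutation p = 0.1, the lowest possible with 3 lines against 3). The difference was -1.05 without sg*Kmt2c* replicate 1.

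**Figure D3:**
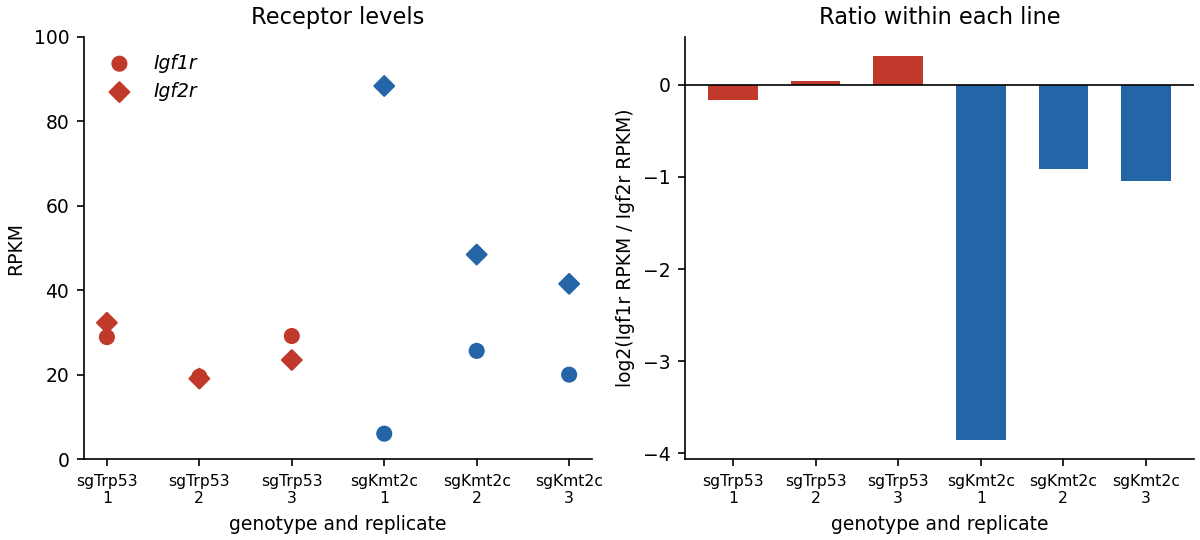
Left, RPKM of Igf1r (circles) and Igf2r (diamonds) in each line; right, the log2 ratio of Igf1r to Igf2r within each line (red, sgTrp53; blue, sgKmt2c). The ratio lies between -0.16 and 0.31 in the sgTrp53 lines and between -3.86 and -0.92 in the sgKmt2c lines.

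Among the binding proteins, *Igfbp7* and *Igfbp4* together made up 76.9 to 97.1% of the summed RPKM in each line. By RPKM their order was opposite in the 2 genotypes. In sg*Kmt2c* replicate 1 most of the sum was *Igfbp4*, followed by *Igfbp5* at 14.3%, *Igfbp3* at 6.66% and *Igfbp7* at 2.92%. *Igfbp7* (chromosome 5, from 77349240 to 77408045), which binds IGFs weakly and is also known as a secreted matrix protein, lay at 128, 114 and 170 RPKM in *Myc*; sg*Trp53* lines as opposed to 1.57, 48.7 and 90.1 RPKM in *Myc*; sg*Kmt2c* lines. No sg*Kmt2c* line reached the lowest sg*Trp53* line, but within the genotype the highest was 57.2 times the lowest, with sg*Kmt2c* replicate 1 holding 9 reads. The means were 137 ± 29.1 and 46.8 ± 44.3 RPKM (SD, n = 3 each). Its log2 fold change of -2.59 (95% interval -5.57 to 0.40, adjusted p = 0.615 from limma) was -1.02 without sg*Kmt2c* replicate 1 and -3.59 without replicate 3, with unadjusted p-values of 0.0179 and 0.0286 (limma). *Igfbp7* ranked high in *Myc*; sg*Trp53* lines, its mean level exceeding that of 96.9% of all genes.

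*Igfbp4* (chromosome 11, from 99041244 to 99054392), an inhibitor of IGF action that PAPP-A cleaves, lay at 27.8, 102 and 77.6 RPKM in *Myc*; sg*Trp53* lines as opposed to 39.9, 210 and 123 RPKM in *Myc*; sg*Kmt2c* lines. The genotypes overlapped and the lines of each spread widely, 3.65-fold in the former and 5.26-fold in the latter. Its log2 fold change was 0.73 (95% interval -0.96 to 2.43, adjusted p = 0.764 from limma). It was 1.39 without sg*Kmt2c* replicate 1, which had the lowest level of its genotype, but 0.19 without sg*Trp53* replicate 1 and 0.21 without sg*Kmt2c* replicate 2.

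The sharing of binding protein transcript within a line was looked at after these values were seen and was not tested. *Igfbp7* made up 79.7, 49.7 and 64.4% of the summed RPKM of the 6 binding proteins in *Myc*; sg*Trp53* lines and 2.92, 18.2 and 39.7% in *Myc*; sg*Kmt2c* lines. *Igfbp4* made up 17.4, 44.2 and 29.4% in *Myc*; sg*Trp53* lines and 73.9, 78.5 and 54.3% in *Myc*; sg*Kmt2c* lines. By RPKM *Igfbp7* was therefore the leading binding protein in 3 of 3 sg*Trp53* lines and *Igfbp4* in 3 of 3 sg*Kmt2c* lines. This order rests on the listed transcript lengths, 1213 bases for *Igfbp7* and 3831 for *Igfbp4*. In reads *Igfbp4* exceeded *Igfbp7* in sg*Trp53* replicates 2 and 3 (2072 and 2049 against 738 and 1421) and in every sg*Kmt2c* line. The ratio of *Igfbp7* to *Igfbp4* was lower in each sg*Kmt2c* line than in any sg*Trp53* line, whatever the lengths. The summed RPKM itself overlapped, at 160 to 264 in *Myc*; sg*Trp53* lines and 53.9, 267 and 227 in *Myc*; sg*Kmt2c* lines, with replicate 1 the lowest of all 6.

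**Figure D4:**
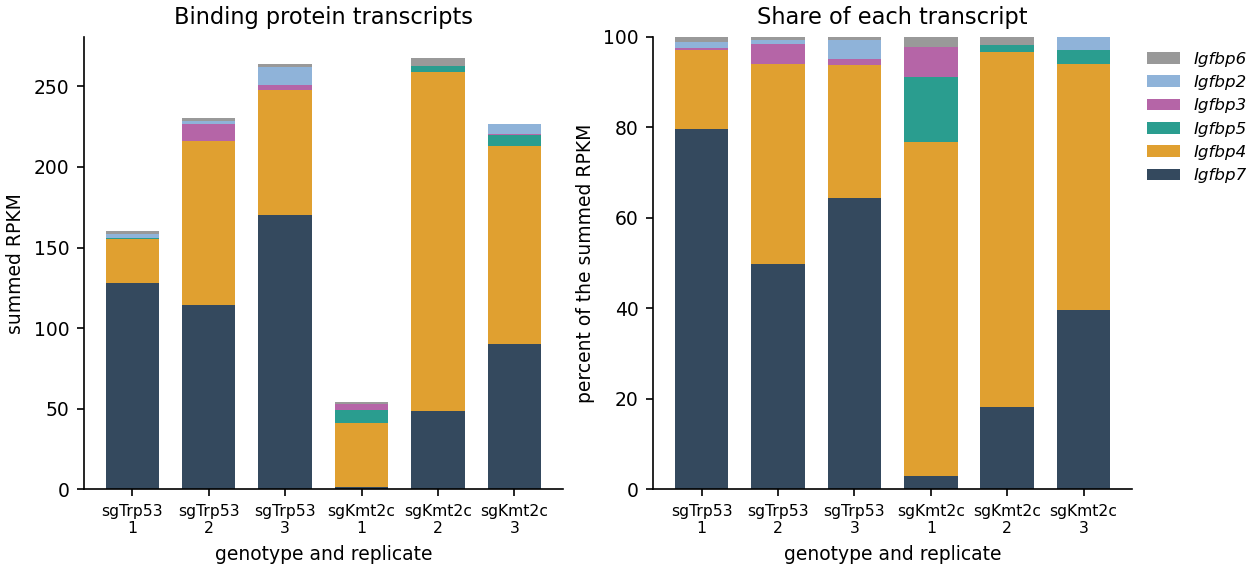
Stacked bars of the 6 binding protein transcripts in each line, as summed RPKM (left) and as percent of that sum (right). Igfbp7 takes 49.7 to 79.7% of the sum in the sgTrp53 lines and Igfbp4 54.3 to 78.5% in the sgKmt2c lines.

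*Igfbp5* (chromosome 1, from 72857932 to 72874884), a binding protein that adheres to matrix, was the reverse of *Igf2* in being almost confined to the sg*Kmt2c* lines. Reads on it numbered 4, 0 and 2 in *Myc*; sg*Trp53* lines, or 0.109, 0 and 0.0483 RPKM, and 219, 87 and 177 reads in *Myc*; sg*Kmt2c* lines, or 7.74, 3.93 and 6.89 RPKM. The 3 sg*Kmt2c* lines were within 1.97-fold of each other and all far above the others. Pooled per genotype, 483 against 6 reads gave a ratio of 116 per library total (95% counting interval 53.04 to 318.5). The log2 fold change was 2.73 (standard error 0.318) at an adjusted p-value of 0.0503 (limma), just outside the threshold. It ranged from 2.57 to 2.98 with each line left out in turn, with adjusted p-values of 0.0911 to 0.251 (limma), and was 2.57 without sg*Kmt2c* replicate 1. On the scale of log2(RPKM + 1) the fold change of so low a gene is understated.

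*Igfbp2* (chromosome 1, from 72824503 to 72852474), a binding protein of fetal liver that is often raised in tumors, lies 5457 bases from *Igfbp5* but did not share its pattern. It lay at 2.01, 1.73 and 11.3 RPKM in *Myc*; sg*Trp53* lines as opposed to 0, 0 and 6.09 RPKM in *Myc*; sg*Kmt2c* lines. Replicate 3 was the highest line in both genotypes, the genotypes overlapped, and in the 2 lines at 0 a count of 3 reads would be 0.487 and 0.623 RPKM. For *Igfbp2* the log2 fold change was -1.28 (95% interval -3.53 to 0.98, adjusted p = 0.717 from limma), with -0.81 without sg*Kmt2c* replicate 1 and the same without replicate 2. It was -0.58 without sg*Trp53* replicate 3 and -2.22 without sg*Kmt2c* replicate 3, where the unadjusted p was 0.0269 (limma). Where lines 1 and 2 of the sg*Kmt2c* genotype had no *Igfbp2*, they had 219 and 87 reads on *Igfbp5*.

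*Igfbp3* (chromosome 11, from 7206086 to 7213923), the main carrier of IGFs in serum, varied more between lines of a genotype than between genotypes. It lay at 0.542, 10.6 and 3.18 RPKM in *Myc*; sg*Trp53* lines as opposed to 3.59, 0.112 and 0.290 RPKM in *Myc*; sg*Kmt2c* lines. The highest line was 19.5 times the lowest in the former and 32.1 times in the latter, where the lowest rests on 1 read. For *Igfbp3* limma gave a log2 fold change of -1.17 (95% interval -3.22 to 0.89, adjusted p = 0.717), with values from -1.89 without sg*Trp53* replicate 1 to -0.44 without sg*Trp53* replicate 2. It was -1.81 without sg*Kmt2c* replicate 1, the line with the most *Igfbp3* of its genotype, and -0.79 without sg*Kmt2c* replicate 2. Its neighbour *Igfbp1*, 3539 bases away and a typical hepatocyte secretion, was too low to be tested, at 0.108, 3.33 and 0 RPKM in *Myc*; sg*Trp53* lines and 0 in each sg*Kmt2c* line.

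*Igfbp6* (chromosome 15, from 102144362 to 102149511), which prefers IGF-II to IGF-I, was low throughout. It lay at 2.06, 1.86 and 1.83 RPKM in *Myc*; sg*Trp53* lines, from 11 to 14 reads, as opposed to 1.15, 4.63 and 0.210 RPKM in *Myc*; sg*Kmt2c* lines, from 6, 19 and 1 reads. The sg*Trp53* lines were alike and sat inside the wide range of *Myc*; sg*Kmt2c* lines. *Igfbp6* had a log2 fold change of -0.25 (95% interval -1.59 to 1.09, adjusted p = 0.896 from limma) and turned to 0.25 without sg*Kmt2c* replicate 3.

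Around the members, 6 lists of pathway genes held 93 genes in the table, of which 77 could be tested. None passed an adjusted p-value of 0.05 (limma, and limma voom on recovered reads). At an unadjusted p-value under 0.05 there were 2 higher and 5 lower genes (limma; 2 and 4 by limma voom), or 9.09% of those tested, near the 8.58% of all genes. Without sg*Kmt2c* replicate 1 they were 5 higher and 2 lower. Of the 43 tested genes of signal transduction downstream of the receptors, 2 were lower and 0 higher at that threshold, with a median log2 fold change of -0.06, and this turned to 0 lower and 3 higher without sg*Kmt2c* replicate 1. The 2 lower genes in the fit of all 6 lines were *Tsc2* at -0.67 and *Tsc1* at -0.53 (adjusted p = 0.528 and 0.570, limma). Their products together form the complex that restrains mTORC1. Without sg*Kmt2c* replicate 1 the unadjusted p-values of *Tsc2* and *Tsc1* were 0.0561 and 0.0800 (limma).

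Proteases and partners of the IGF complex gave 2 higher genes among 8 tested and no lower one at an unadjusted p-value under 0.05 (limma), where 3.25% of all genes were higher. *Pcsk6*, a proprotein convertase, lay at 37.3, 15.2 and 26.3 RPKM in *Myc*; sg*Trp53* lines and 278, 78.9 and 105 RPKM in *Myc*; sg*Kmt2c* lines, without overlap. The difference was 2.37 on the log2 scale (standard error of 0.532, adjusted p of 0.328, limma), or 1.84 without sg*Kmt2c* replicate 1. *Furin*, a convertase of the same family that can process pro-IGF1R, was 0.68 higher on the log2 scale (adjusted p of 0.474, limma), again without overlap.

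Relatives of the family by sequence, the CCN proteins and insulin receptors among them, gave 2 lower genes among 6 tested at an unadjusted p-value under 0.05 (limma), or 1 without sg*Kmt2c* replicate 1, where 5.34% of all genes were lower. *Cyr61*, a matrix-bound CCN protein, lay at 123, 134 and 202 RPKM in *Myc*; sg*Trp53* lines and 54.7, 59.9 and 82.3 RPKM in *Myc*; sg*Kmt2c* lines, without overlap, a difference of -1.20 on the log2 scale (adjusted p of 0.322, limma). *Wisp1*, another CCN gene, overlapped and was at -2.02 (adjusted p = 0.580 from limma), or -1.11 with an unadjusted p of 0.0747 (limma) without sg*Kmt2c* replicate 1. Among 5 genes for proteins that bind *Igf2* mRNA, 1 was lower at an unadjusted p-value under 0.05 (limma), *Igf2bp3*, at 19.5, 12.8 and 16.3 RPKM in *Myc*; sg*Trp53* lines and 0.195, 9.80 and 5.22 RPKM in *Myc*; sg*Kmt2c* lines. On the log2 scale *Igf2bp3* at -1.97 (adjusted p = 0.569 from limma) was -1.05 without sg*Kmt2c* replicate 1, and *Igf2bp2*, next by p, overlapped at -1.29 (adjusted p = 0.719 from limma). Among 11 tested regulators of *Igf1* and *Igf2* transcription none had an unadjusted p-value under 0.05 (limma, and limma voom), and the leading genes by p were *Cebpb* at 0.64 and *Stat5b* at -0.49 (adjusted p = 0.651 and 0.696, limma).

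Genes outside these lists whose levels ran most like *Igf2* and *Igfbp5* over the 6 lines were found by the root mean square difference of log2(RPKM + 1) after centring each gene on its mean. Nearest to *Igf2* were *Cul9* (0.507), *Cdkn2a* (0.512) and *Fabp3* (0.526). *Cdkn2a* lay at 405, 451 and 424 RPKM in *Myc*; sg*Trp53* lines and 21.2, 49.3 and 51.3 RPKM in *Myc*; sg*Kmt2c* lines. Nearest to *Igfbp5* were *Trp53inp1* (0.272), *Ccng1* (0.299) and *Psrc1* (0.330). *Ccng1* lay at 16.5, 19.4 and 17.4 RPKM in *Myc*; sg*Trp53* lines and 139, 134 and 191 RPKM in *Myc*; sg*Kmt2c* lines. These distances describe 6 lines and carry no test.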

How the data were processed

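RNA-seq of 6 liver tumor-derived cell lines was analysed, 3 per genotype. The authors trimmed reads with Trimmomatic, used STAR for alignment to GRCm38 (mm10) and HTSeq for gene counts, and the deposited values are RPKM. Of 21065 rows, 209 had no values, and 6 sample columns of other samples were not used. The deposited table of the authors' DESeq2 comparison was not used. Multiplied by transcript length, 100% of values were whole multiples of 1 read (tolerance 0.01 read), which gave the reads behind each.

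Values were tested with limma 3.58.1 in R 4.3.3 (lmFit, eBayes with a trend) on log2(RPKM + 1) for 11617 genes reaching an RPKM of 1 in 3 or more libraries. The fold change understates that of low genes. Where a line is left out, the same genes were tested. The fit was tested on simulated data. Counts of replicates differed by more than sampling noise (chi-square of 28.5 to 85.6 for each gene), so each library was 1 sample. All 10 members are named, with the targeted genes, *Insr*, *H19*, in each pathway list the 2 genes with the smallest p, and the 3 nearest profiles of 2 members. *Airn*, *Igf2os*, *Igfbp1* and single marker genes were named after their values were seen. Members and lists were chosen with earlier results of these data known. Alternatives changed the pseudocount, filter, scaling, moderation, replicate block and the lines used, and limma voom was run on the recovered reads. Plots were drawn with matplotlib 3.10.9.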

Additional observations from a re-analysis of the deposited data

How the results depend on the processing

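Over 17 alternatives, 165 of 166 recomputed member fold changes kept their direction, the exception being *Igfbp6*, which ran from -0.86 to 0.25 over lines left out and was 0.25 without sg*Kmt2c* replicate 3. The call of *Igf2*, the 1 member lower at an adjusted p-value under 0.05, was kept with quantile normalization and eBayes without a trend. It became 0 with pseudocounts of 0.1 and 0.5, without the filter, with an RPKM of at least 5, with TPM or median-of-ratios scaling, with limma voom, and with the 2A and 2T1 lines averaged, and was 0 to 0 over the fits that each left out a line. Its adjusted p-value ranged from 0.0335 to 0.304 (limma, the highest by limma voom), and its unadjusted p-value stayed under 0.05 in 17 of 17. The count of members higher at an adjusted p-value under 0.05 went from 0 to 1 (*Igfbp5*, adjusted p = 0.0280 from limma) with eBayes without a trend. At an unadjusted p-value under 0.05, the members higher went from 2 to 1 with an RPKM of at least 5, where *Igfbp5* could not be tested, and were 2 to 3 with a line left out, while the members lower were 2 to 4, with 4 without sg*Kmt2c* replicate 3. The log2 ratio of *Igf1r* to *Igf2r* differed by -2.52 to -1.05 over lines left out. Other scalings moved the median of all genes to between -0.12 and -0.01.

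The replicate numbers are not stated to pair the lines. Same-numbered lines correlated in their deviations from the genotype mean at 0.192, 0.399 and 0.0316 (Pearson, across genes). sg*Trp53* replicates 1 and 2 correlated most with the sg*Kmt2c* line of their own number, and sg*Trp53* replicate 3 with sg*Kmt2c* replicate 1 (0.152). Deviations from a mean of 3 lines are not independent, so these correlations do not settle whether the numbers pair the lines. A fit with the replicate number as a block gave 0 members lower at an adjusted p-value under 0.05 (0.154 for *Igf2*, limma), and 4 lower and 3 higher at an unadjusted one. Depth limits *Igf1*, *Igf2*, *Igfbp2*, *Igfbp3*, *Igfbp5* and *Igfbp6*, with fewer than 20 reads in all libraries of a genotype or in at least 1 library of both.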
